A study of Mus musculus with 3 samples.

Results

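Genes of secreted matricellular proteins and heparin-binding factors were followed through the cells of mouse back skin, chosen by name as the set Ccn1, Ccn2, Postn, Tnc, Thbs1, Sparc, Ptn and Mdk. All 8 were present among the 32285 genes of the count tables. Transcripts were counted by single-cell RNA sequencing (scRNAseq, 10X Genomics 3′ version 3 chemistry) in back skin of Wildtype, untreated mice at 3 ages, postnatal day 38 (P38, male, catagen), 6 months (female, mostly anagen) and 12 months (male, mixed telogen and anagen), with 1 library per age. The study describes K14-H2BGFP mice, which carry a histone-GFP fusion under the keratin 14 promoter of basal epithelium, and flow cytometry for GFP-positive epithelial cells that set the proportion of epidermal and follicle cells, whereas the labels describe dissociated total skin loaded without a sort.

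Each age was 1 library, so differences between ages are given without a test or a replicate, and age, sex, hair cycle stage, depth and the sort for epithelium cannot be told apart. Kept cells numbered 2109 at P38, 3502 at 6 months and 3240 at 12 months, with median unique molecular identifiers (UMIs, 1 per captured transcript) of 16170, 1019 and 11438.5. The libraries of 6 and 12 months shared 136 cell barcodes, of which 81 were among the kept cells, against 5 and 2 for the pairs with P38. Of the 81 cells, 40 in each library were gated as sebaceous gland cells, so no change between ages is given for that class, and the tests below were also run without all barcodes found in more than 1 library. Cells were gated into classes by the summed level of marker genes that include none of the 8 genes, and each class is called by its markers (HF-SC-like and so on). HF-SC-like cells (hair follicle stem cells of the bulge, with Cd34 at 406, 485 and 656 and Krt24 at 436, 547 and 509.9 CPM, counts of a gene per 1e6 UMIs of its class) numbered 306, 106 and 94 at P38, 6 months and 12 months. Their gate also required a UMI of Cd34 or Krt24, so these levels are in part set by the gate. Niche-like cells, the inner bulge layer marked by Fgf18 and Bmp6, numbered 101, 23 and 20. IFE basal-like cells, the basal layer of the interfollicular epidermis, numbered 226, 140 and 847, and UpHF-like cells of the upper follicle 201, 240 and 193. Fibroblast-like cells were found only at 6 months (109) and 12 months (249), and 0 cells of the P38 library passed that gate. The study names the GFP sort for all ages in one place and in another singles out P38 as the GFP-sorted epithelial sample.

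Matricellular proteins are secreted into the extracellular matrix, where they act less as scaffold than as signals that bind integrins, growth factors and matrix fibres. Ccn1 and Ccn2 (formerly Cyr61 and Ctgf) are targets of the transcriptional coactivators YAP and TAZ, and Ccn1 is also an immediate early gene. Pleiotrophin (Ptn) and midkine (Mdk) are the members of a small family of heparin-binding growth factors that signal through the receptor phosphatase Ptprz1, the kinase Alk and syndecans. Periostin (Postn) and tenascin C (Tnc) are known from remodelling matrix and from stem cell niches, thrombospondin 1 (Thbs1) binds Cd47 and activates latent TGF-beta, and Sparc binds collagen and calcium.

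The 8 genes lay on 6 chromosomes of GRCm38 (the build the files name as mm10). Ccn1 (ENSMUSG00000028195, chr3:145646976-145649981, minus strand) and Postn (ENSMUSG00000027750, chr3:54361109-54391037, plus strand) were on chromosome 3, and Thbs1 (ENSMUSG00000040152, chr2:118111876-118127133, plus) and Mdk (ENSMUSG00000027239, chr2:91929805-91932297, minus) were on chromosome 2. Ccn2 (ENSMUSG00000019997) was at chr10:24595442-24598683 on the plus strand, Tnc (ENSMUSG00000028364) at chr4:63959785-64047015 on the minus strand, Sparc (ENSMUSG00000018593) at chr11:55394500-55423183 on the minus strand and Ptn (ENSMUSG00000029838) at chr6:36714929-36810220 on the minus strand. Promoter windows from RefSeq (GRCm38.p6, 250 bases before to 50 after a start site) were matched for 5 of the 8 genes. One window each is shown for Ccn1, Postn, Sparc and Ptn, and for the other windows only the matches are given, 5′ to 3′ on the strand of the gene, with matches to 4 motifs in capitals: CATTCC (the core of the motif bound by TEAD factors, the DNA-binding partners of YAP), TATAAA (the TATA box), TGACTCA (bound by AP-1) and the CArG box (bound by Srf), each searched on both strands.
Ccn1, chr3:145649936-145650235, minus: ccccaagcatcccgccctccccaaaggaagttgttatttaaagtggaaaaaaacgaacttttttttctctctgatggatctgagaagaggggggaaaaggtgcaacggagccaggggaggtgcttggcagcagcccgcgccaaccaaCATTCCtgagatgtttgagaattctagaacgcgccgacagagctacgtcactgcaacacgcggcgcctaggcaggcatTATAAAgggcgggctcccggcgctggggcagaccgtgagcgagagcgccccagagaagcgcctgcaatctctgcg
Postn, chr3:54360857-54361156, plus: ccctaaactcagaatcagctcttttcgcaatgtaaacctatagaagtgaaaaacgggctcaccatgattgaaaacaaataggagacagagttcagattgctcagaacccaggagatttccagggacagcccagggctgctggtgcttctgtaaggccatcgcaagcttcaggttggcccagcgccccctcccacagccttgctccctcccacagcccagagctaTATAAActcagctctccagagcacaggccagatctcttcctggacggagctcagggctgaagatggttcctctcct
Sparc, chr11:55420031-55420330, minus: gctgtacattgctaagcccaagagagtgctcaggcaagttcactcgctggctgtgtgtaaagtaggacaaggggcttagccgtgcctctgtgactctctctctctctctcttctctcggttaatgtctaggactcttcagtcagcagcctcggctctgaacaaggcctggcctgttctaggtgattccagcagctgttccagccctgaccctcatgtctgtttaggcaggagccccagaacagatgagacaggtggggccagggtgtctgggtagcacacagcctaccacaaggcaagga
Ptn, chr6:36810130-36810429, minus: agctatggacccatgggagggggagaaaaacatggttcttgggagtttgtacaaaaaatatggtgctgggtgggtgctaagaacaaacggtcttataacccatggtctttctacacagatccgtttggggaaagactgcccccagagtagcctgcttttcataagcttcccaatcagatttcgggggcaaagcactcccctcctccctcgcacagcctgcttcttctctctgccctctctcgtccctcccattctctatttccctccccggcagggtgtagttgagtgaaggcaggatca

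The Ccn1 window held CATTCC at position -103 and TATAAA at position -25 from its start site, and the Postn window held TATAAA at -26. The 2 windows of Tnc overlap and held 1 TATAAA, at -126 or -205 by start site, and the other Postn window held none of the 4 motifs. These are positions of the motif's first base in the window and describe letters only. Over all 32851 windows of the table, 14.7% held CATTCC, 13.6% TATAAA, 5.2% TGACTCA and 1.63% a CArG box. The Sparc and Ptn windows held none of the 4, which says only that these letters are not in these windows.

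Ccn2, Postn and Ptn were higher in both bulge classes than in IFE basal-like and UpHF-like cells in every library, Sparc had its highest levels in fibroblast-like cells and Mdk its highest level in dermal papilla-like cells. Over the 7 classes with at least 20 cells in every library, HF-SC-like cells had the highest mean level on the log2(CPM + 1) scale for 7 of the 8 genes. The exception was Thbs1, for which the sebaceous gland, IFE basal-like and HF-SC-like cells followed each other within their spread over libraries. For Ccn1 and Ptn the lead of HF-SC-like over Niche-like cells was also within that spread and held in 2 of the 3 libraries. For Tnc it likewise held in 2 libraries. For Mdk that top place rested on 3, 2 and 2 UMIs and is not a measured order. The ranking left out the HG-like and migNiche-like classes described below, and Tnc was higher in both. In the P38 library it had 341 CPM (HG-like) and 154 CPM (migNiche-like), against 77.7 CPM (HF-SC-like). The 6 months library had 235 CPM (migNiche-like), against 198 CPM (HF-SC-like). Sparc was higher in HG-like than in HF-SC-like cells at P38 (1128 CPM, against 813 CPM) and lower at 12 months. The ranking also left out the dermal classes. Ccn1 was higher in fibroblast-like than in HF-SC-like cells at 6 months (1039 CPM, against 846 CPM) and 12 months (913 CPM, against 759 CPM). Dermal papilla-like cells had 1017 CPM of Ccn1 at 12 months. With cells thinned to 3000 UMIs, HF-SC-like cells had the top place for 6 genes over 5 classes. Niche-like and sebaceous gland cells were not among these, since fewer than 20 of their cells were deep enough at 6 and 12 months. This count therefore says nothing about the lead over Niche-like cells. The share of all genes with this top place was not counted. These CPM count 3′ ends and are not scaled to transcript length, so levels are compared between cells and not between genes.

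**Figure D1:**
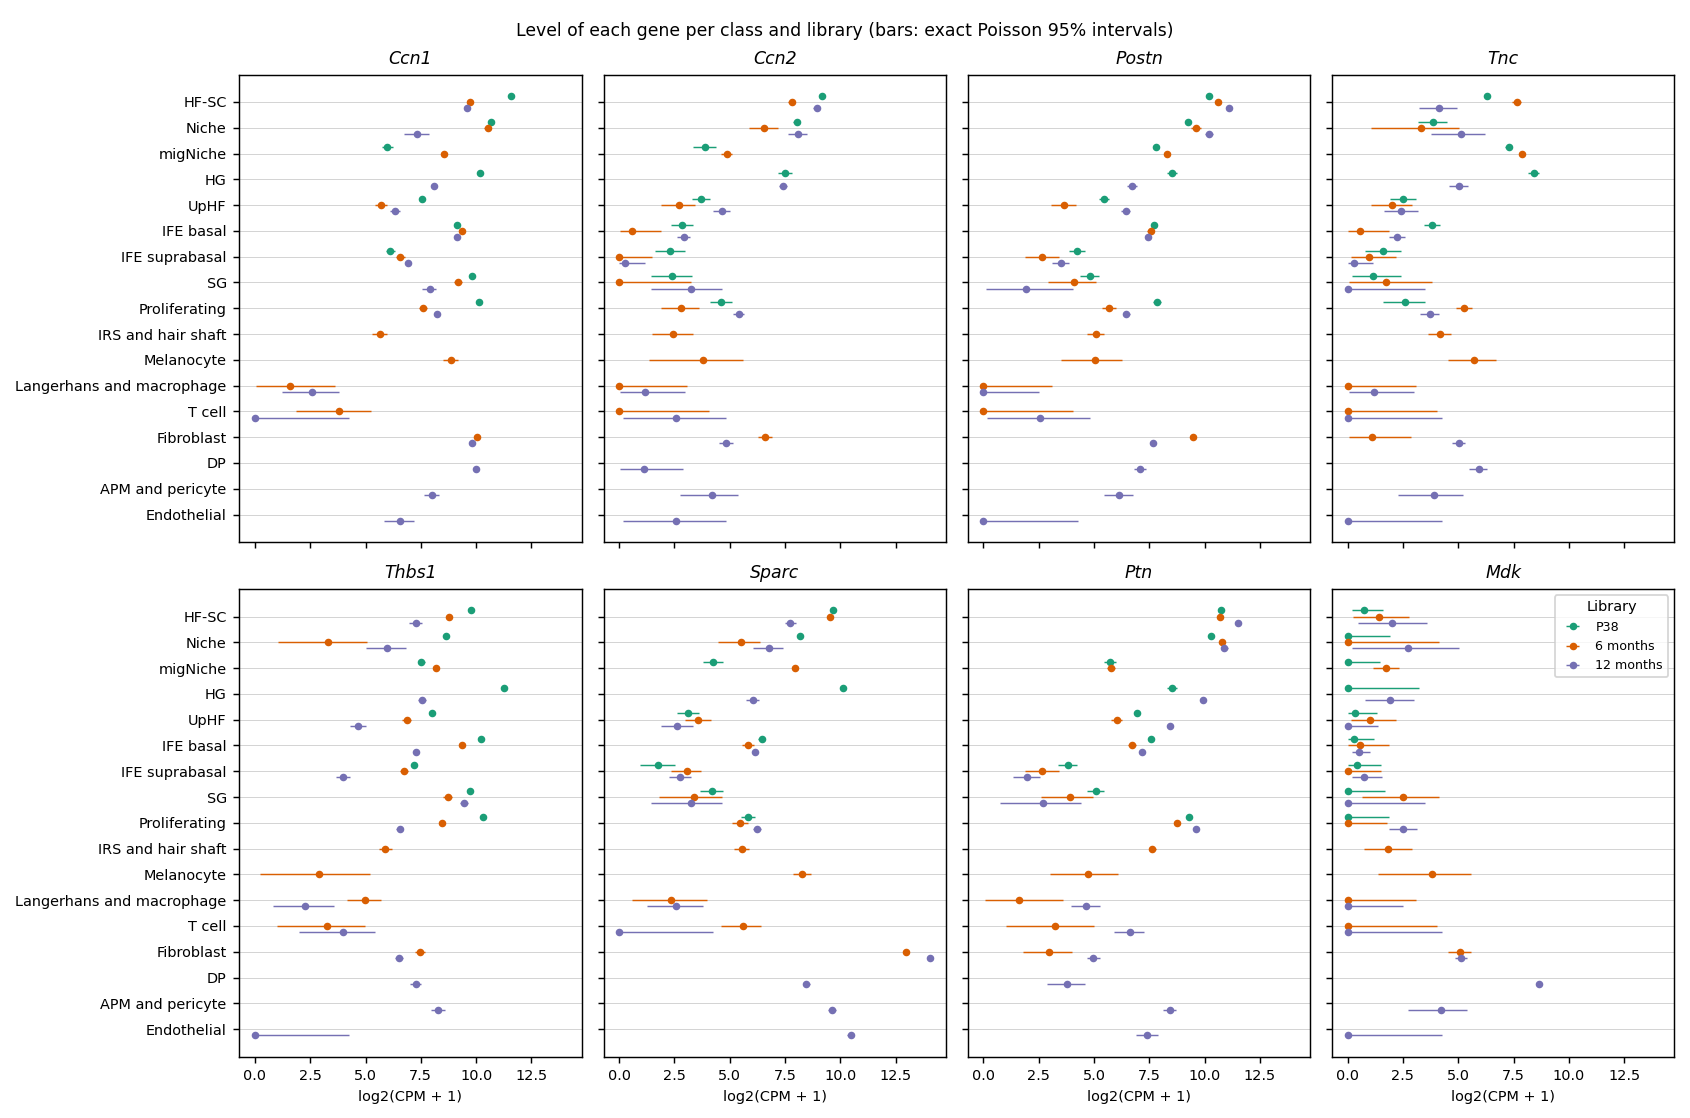
Level of each of the 8 genes on the log2(CPM + 1) axis for each cell class (down the page) and library (colours), with points for the summed UMIs of the class and bars for exact Poisson 95% intervals. Postn and Ptn stand highest in the 2 bulge classes in every library, Ccn2 in HF-SC-like cells, Sparc in fibroblast-like cells and Mdk in dermal papilla-like cells.

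Ccn2, a secreted CCN family protein with integrin and heparin-binding sites, had its 5 highest levels of any class and library in the 2 bulge classes. In the order P38, 6 months, 12 months it measured 582, 222 and 489 CPM in HF-SC-like cells, against 6.14, 0.486 and 6.57 CPM in IFE basal-like cells. The IFE basal-like values rest on 26, 1 and 74 UMIs. Every HF-SC-like value was above every IFE basal-like value, and in edgeR's quasi-likelihood test over the 3 libraries the log2 ratio was 6.38 ± 0.32 (SE, adjusted p = 6.7e-05). Ccn1, its paralog, had 3068, 846 and 759 CPM in HF-SC-like cells, against 557, 648 and 561 CPM in IFE basal-like cells. HF-SC-like cells were higher in each library, but the log2 ratio was 2.46 at P38 and 0.39 and 0.44 at 6 and 12 months, and the joint ratio of 0.89 ± 0.42 did not pass the test (adjusted p = 0.173). The 16 immediate early and dissociation genes summed to 37502, 29822 and 22655 CPM in HF-SC-like cells at the 3 ages, against 12698, 23532 and 27888 CPM in IFE basal-like cells, and their part in the Ccn1 difference was not tested.

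Postn, a fasciclin-domain protein that binds integrins and collagen, had 1162, 1567 and 2213 CPM in HF-SC-like cells, against 211, 187 and 175 CPM in IFE basal-like cells. Ptn had 1687, 1649 and 2904 CPM in HF-SC-like cells, against 187, 104.9 and 144 CPM in IFE basal-like cells. The groups did not overlap for either gene. The log2 ratios were 2.89 ± 0.20 for Postn (adjusted p = 0.000134, edgeR) and 3.65 ± 0.21 for Ptn (adjusted p = 8.57e-05), with each library's own ratio between 2.46 and 3.67 for Postn and between 3.17 and 4.34 for Ptn. Sparc had 813, 746 and 213 CPM in HF-SC-like cells, against 86.0, 55.4 and 68.9 CPM in IFE basal-like cells, a log2 ratio of 2.72 ± 0.41 (adjusted p = 0.00314). The 6 fibroblast markers summed to 8.28, 66.9 and 54.3 CPM in these HF-SC-like cells, with Pdgfra at 0 in all 3 libraries, against 61362 and 91105 CPM in fibroblast-like cells at 6 and 12 months. Tnc, a hexameric matrix glycoprotein, had 77.7, 198 and 16.6 CPM in HF-SC-like cells, against 13, 0.486 and 3.64 CPM in IFE basal-like cells. Its CPM values also did not overlap between the classes, but the counting intervals of the nearest values did. These were 16.6 CPM on 11 UMIs (HF-SC-like, 12 months, 8.28 to 29.7) and 13 CPM on 55 UMIs (IFE basal-like, P38, 9.79 to 16.9). The share of all genes without such overlap was not counted. The log2 ratio of Tnc was 3.35 ± 0.74 (adjusted p = 0.015, edgeR), a call lost with DESeq2 (0.0717).

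Thbs1, a trimeric glycoprotein, was lower. It had 879, 441 and 152 CPM in HF-SC-like cells, against 1184, 647 and 153 CPM in IFE basal-like cells, a log2 ratio of -0.51 ± 0.15 (adjusted p = 0.0426). By library the ratio was -0.43 (P38), -0.55 (6 months) and -0.01 (12 months), so the spread between ages within each class was larger than the difference between the classes. Leaving out any 1 library ended this call, with adjusted p between 0.0646 and 0.2, and it was also lost with DESeq2 (0.0591) and without the library term (0.743). Mdk had 3, 2 and 2 UMIs in HF-SC-like cells and 1, 1 and 5 UMIs in IFE basal-like cells and was too low to be tested. In all, 6 of the 7 tested genes passed the test between HF-SC-like and IFE basal-like cells, 5 higher and 1 lower, where 23.4% of all 10216 tested genes were called.

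The 7 tested genes were all higher in HF-SC-like than in UpHF-like cells. The largest log2 ratio among them was that of Sparc, with 813, 746 and 213 CPM in HF-SC-like cells, against 7.68, 11 and 5.22 CPM in UpHF-like cells, a log2 ratio of 5.91 ± 0.31 (adjusted p = 5.63e-05, edgeR). Postn was at 43.1, 11.5 and 86.1 CPM in UpHF-like cells (log2 ratio 5.16 ± 0.46, adjusted p = 0.000253) and Ccn2 at 12.1, 5.49 and 23.9 CPM (4.84 ± 0.30, adjusted p = 7.29e-05). Tnc, Ptn, Ccn1 and Thbs1 followed with log2 ratios of 4.01 ± 0.55, 3.61 ± 0.30, 3.57 ± 0.23 and 1.85 ± 0.22. Their highest adjusted p was 0.00163, and 28% of all 9443 genes were called in this comparison. Thbs1 was again the smallest, and its call was lost without the library term (adjusted p = 0.251). At 6 months, 105 of the 240 UpHF-like cells fell in a cluster led by the inner root sheath and hair shaft genes Krt71, Krt25 and Krt35, with a median of 546 UMIs per cell. Without the 6 months library the 7 genes were still higher in HF-SC-like cells. That was a fit of 2 libraries, whose p-values rest little on the spread between libraries and are not read.

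**Figure D2:**
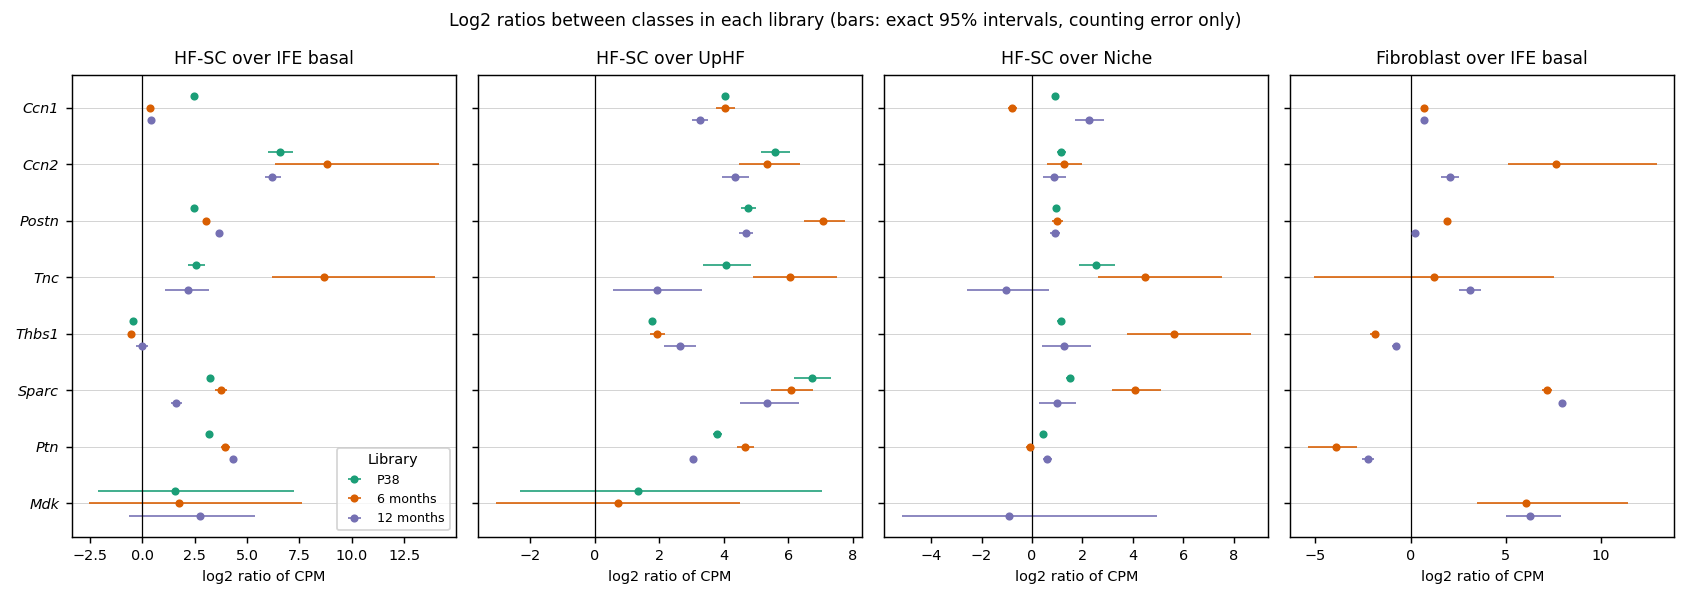
Log2 ratio of CPM between classes for each gene, with 1 point per library and exact 95% intervals that cover counting error only, and a line at 0 for equal levels. Ccn2, Postn, Sparc and Ptn lie right of 0 in every library for HF-SC-like over IFE basal-like and over UpHF-like cells, while Thbs1 lies at or left of 0 in the first panel. Pairs with 0 UMIs in either class are not drawn.

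Within the bulge, Postn and Ccn2 were higher in HF-SC-like than in Niche-like cells. Postn had 1162, 1567 and 2213 CPM in HF-SC-like cells, against 602, 780.1 and 1175 CPM in Niche-like cells, with log2 ratios of 0.95, 1.01 and 0.91 in the 3 libraries. Ccn2 had 582, 222 and 489 CPM in HF-SC-like cells, against 259, 93.1 and 267 CPM in Niche-like cells, with ratios of 1.17, 1.25 and 0.87. Both genes were higher in HF-SC-like cells in every library, and both passed the test (0.97 ± 0.12, adjusted p = 0.0039, and 1.11 ± 0.16, adjusted p = 0.00828, edgeR). Ptn, at 1245, 1764 and 1896 CPM in Niche-like cells, did not pass (0.33 ± 0.16, adjusted p = 0.396), with a value above 0 at P38 and 12 months and of -0.10 at 6 months. Sparc (2.0 ± 0.39, adjusted p = 0.0309) and Tnc (2.45 ± 0.53, adjusted p = 0.049) were called, while Thbs1 (1.91 ± 0.47, adjusted p = 0.0747) and Ccn1 (0.66 ± 0.43, adjusted p = 0.548) were not. Tnc was not higher in each library, since its ratio at 12 months was -1.04 on 11 and 6 UMIs. Of the 7 tested genes 4 were called, all higher in HF-SC-like cells, where 2.2% of all 7652 genes were called. These calls rested on 23 and 20 Niche-like cells at 6 and 12 months. Without P38 none of the 7 passed, with the adjusted p of Postn at 0.0518, that of Ccn2 at 0.174 and that of Sparc at 0.201, and without 12 months only Tnc did (0.0496). Without 6 months Ccn1 (1.44, adjusted p = 0.00782) and Thbs1 (1.21, adjusted p = 0.0069) passed and Tnc did not (0.0564). Each of these fits had 2 libraries, so their p-values rest little on the spread between libraries. Tnc was also lost without shared barcodes (0.0562) and with DESeq2 (0.228), and without the library term none of the 7 passed. With classes from clusters all but Ptn passed, with log2 ratios of 3.59 for Ccn2 and 6.22 for Sparc.

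HG-like cells (hair germ, marked by Lgr5 and Cdh3) were compared with HF-SC-like cells in the P38 and 12 months libraries, which held 27 and 96 of them. Postn was at 366 and 104.9 CPM in HG-like cells, against 1162 (P38) and 2213 CPM (12 months) in HF-SC-like cells, and fell by 2.99 ± 0.64 on the log2 scale (adjusted p = 0.0321, edgeR). It was the only call among the 7 tested genes, where 1.48% of all 7977 genes were called, and it was lost without shared barcodes (adjusted p = 0.054) and with at least 1000 genes per cell (0.102). Ptn (-1.84 ± 0.48, adjusted p = 0.0926), Ccn2 (-1.57 ± 0.47, adjusted p = 0.15) and Ccn1 (-1.39 ± 0.46, adjusted p = 0.222) had negative values in both libraries, and Tnc (1.67 ± 0.48, adjusted p = 0.137) a positive value in both. Thbs1 stood at 2458 CPM in HG-like cells at P38, its highest level in any class, against 188 CPM at 12 months. Sparc went opposite ways in the libraries. At P38 it was at 1128 CPM in HG-like cells, against 813 CPM in HF-SC-like cells (ratio 1.39). At 12 months it was at 64.7 CPM, against 213 CPM (ratio 0.304). HG-like cells fell in different clusters at these ages, with 21 of 27 at P38 and 46 of 96 at 12 months in the cluster led by Nppc and Scrg1, and 4 and 47 in a cluster led by Krt28 and Pclaf.

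A further follicle class, migNiche-like cells, was marked by the gap junction genes Gja1, Gjb2 and Gjb6 and numbered 128 cells at P38 and 512 at 6 months. It was set beside Niche-like cells in these libraries as ratios with counting intervals and no test. Ptn measured 52.2 and 53.5 CPM in migNiche-like cells, against 1245 and 1764 CPM in Niche-like cells, and Ccn2 at 13.6 and 28.01 CPM, against 259 and 93.1 CPM. Tnc ran opposite to these, at 154 and 235 CPM in migNiche-like cells, against 13.4 and 8.87 CPM in Niche-like cells, a ratio of 11.5 at P38 (7.13 to 19.6) and of 26.5 at 6 months (7.33 to 219), the second on 2 UMIs in Niche-like cells. Postn was lower in both libraries, with ratios of 0.372 and 0.398. Sparc and Thbs1 had ratios below 1 at P38 (0.0626 and 0.457) and above 1 at 6 months (5.64 and 32.5). Of the 512 cells at 6 months, 125 fell in the cluster of few UMIs named above.

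Proliferating cells, gated on Mki67 and Top2a and drawn from several lineages, held 634, 432 and 785 CPM of Ptn at the 3 ages and 23.6, 5.88 and 41.4 CPM of Ccn2. Sebaceous gland-like cells held 854, 418 and 697 CPM of Thbs1 and 892, 587 and 237 CPM of Ccn1, with at most 27.2 CPM of Postn and 32.6 CPM of Ptn. Their shared barcodes (40 of 99 cells at 6 months and 40 of 62 at 12 months) bear on those values.

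In the epidermis the called genes were lower in the differentiating layers. IFE suprabasal-like cells, the differentiating layers with Krt1 and Krt10, held 68.9, 94.7 and 121 CPM of Ccn1, against 557, 648 and 561 CPM in IFE basal-like cells, a log2 ratio of -2.51 ± 0.17 (adjusted p = 0.000174, edgeR). Thbs1 was at 144, 106.5 and 15 CPM in IFE suprabasal-like cells, against 1184, 647 and 153 CPM in IFE basal-like cells (-2.83 ± 0.20, adjusted p = 0.000191), a call lost without the library term (0.108). At 6 months 74 of the 174 IFE suprabasal-like cells fell in the cluster of few UMIs with inner root sheath genes. Without that library the Thbs1 ratio was -3.11, in a fit of 2 libraries whose p-value is not read. Postn, Sparc and Ptn fell by 3.98 ± 0.24, 3.68 ± 0.38 and 4.40 ± 0.34 on the log2 scale, with adjusted p of 0.000108, 0.000842 and 0.000281. Of the 6 tested genes 5 were called, all lower, where 25.8% of all 10019 genes were called. Ccn2, already low in IFE basal-like cells, was at 4.0, 0 and 0.220 CPM in IFE suprabasal-like cells (-1.89 ± 0.73, adjusted p = 0.106). The 16 immediate early genes together were at 9701, 15132 and 21003 CPM in IFE suprabasal-like cells, against 12698, 23532 and 27888 CPM in IFE basal-like cells.

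In fibroblast-like cells, the collagen-producing cells of the dermis, Sparc was at 7952 and 17006.5 CPM at 6 and 12 months, against 55.4 and 68.9 CPM in IFE basal-like cells, a log2 ratio of 7.50 ± 0.32 (adjusted p = 1.59e-07, edgeR). Mdk was at 33.0 and 34.1 CPM in fibroblast-like cells, against 0.486 and 0.444 CPM in IFE basal-like cells (6.07 ± 0.58, adjusted p = 1.46e-05), where it had 1 and 5 UMIs. Ccn2 was at 95.5 and 27.6 CPM in fibroblast-like cells, against 0.486 and 6.57 CPM in IFE basal-like cells, and rose by 3.5 ± 0.80 on the log2 scale (adjusted p = 0.00588). The 2 factors of the midkine family went opposite ways, since Ptn was at 6.82 and 30.5 CPM in fibroblast-like cells, against 104.9 and 144 CPM in IFE basal-like cells (-2.92 ± 0.47, adjusted p = 0.000618). Thbs1 was also lower, at 175 and 90.7 CPM in fibroblast-like cells, against 647 and 153 CPM in IFE basal-like cells (-1.39 ± 0.38, adjusted p = 0.0155), a call lost without the library term (0.0671). Ccn1 (0.62 ± 0.28, adjusted p = 0.118) and Postn (1.0 ± 0.42, adjusted p = 0.101) had positive values in both libraries and were not called. In this comparison of 2 libraries 5 of the 7 tested genes were called, 3 higher and 2 lower, where 31.8% of all 10712 genes were called.

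The other dermal classes reached 20 cells only at 12 months, so their values have no replicate. DP-like cells (dermal papilla, with Crabp1 and Wif1) held 401 CPM of Mdk, against 34.1 CPM in fibroblast-like cells of that library, an 11.8-fold ratio with a counting interval of 9.35 to 14.9. Sparc ran opposite to this, at 350.5 CPM in DP-like cells, against 17006.5 CPM in fibroblast-like cells. Ccn2 had 1 UMI in DP-like cells. Sparc was at 1416 CPM in endothelial-like cells and 794 CPM in cells with smooth muscle and pericyte markers, and Ptn at 169 and 342.5 CPM in these classes. T cell-like cells, which should lack these genes, held 46.8 CPM of Sparc at 6 months (11 UMIs) and 0 at 12 months, and 8.51 and 97.5 CPM of Ptn (2 and 20 UMIs). The 55.4 CPM of Sparc in IFE basal-like cells at 6 months was thus near the level in T cell-like cells of that library, while the 746 CPM in HF-SC-like cells was not. For Ptn at 12 months, fibroblast-like cells (30.5 CPM) lay below the T cell-like level and IFE basal-like cells (144 CPM) not far above it. The 2904 CPM of HF-SC-like cells was far above it.

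Levels summed over a class can come from few cells, so shares of cells with a UMI were compared after each cell had been thinned to 3000 UMIs, leaving out shallower cells (5, 3 and 2 HF-SC-like cells at the 3 ages). Ptn was found in 92.7%, 87.4% and 100% of thinned HF-SC-like cells, against 21.9%, 23.2% and 24.1% of thinned IFE basal-like cells. Postn was found in 78.1%, 95.2% and 97.8% of HF-SC-like cells, against 27.7%, 32.6% and 27.3% of IFE basal-like cells. Both genes were thus found in most HF-SC-like cells of each library. Ccn2 was found in 41.5%, 24.3% and 52.2% of HF-SC-like cells, against 0.893%, 0% and 1.54% of IFE basal-like cells, where 0 of 138 cells at 6 months has an exact upper limit of 2.64%. Sparc was found in 70.8%, 71.8% and 45.7% of HF-SC-like cells, against 21.0%, 13.04% and 14.5% of IFE basal-like cells, and in 9.52% of T cell-like cells at 6 months. Ccn1 was found in 75.8%, 37.9% and 43.5% of HF-SC-like cells, against 47.3%, 52.9% and 49.7% of IFE basal-like cells. At 6 and 12 months this share was lower in HF-SC-like cells while the CPM was higher, so no order is read from it. Without thinning, the shares of HF-SC-like cells were 97.1%, 95.3% and 100% for Ptn and 60.8%, 33.0% and 69.2% for Ccn2, against 49.1%, 45.7% and 44.0% for Ptn and 7.96%, 0.714% and 2.83% for Ccn2 in IFE basal-like cells. In the T cell-like cells of 6 and 12 months, Ptn had a UMI in 4.76% and 7.90% of thinned cells and Postn and Ccn2 in 0% of 42 and 38 cells. Ccn1 and Ccn2 were found together in 105 of 301, 9 of 103 and 25 of 92 thinned HF-SC-like cells, and Ccn2 without Ccn1 in 20, 16 and 23. The shares with both were 34.9%, 8.74% and 27.2%, against 31.5%, 9.19% and 22.7% if each gene were found independently of the other. No co-expression is read from these counts.

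**Figure D3:**
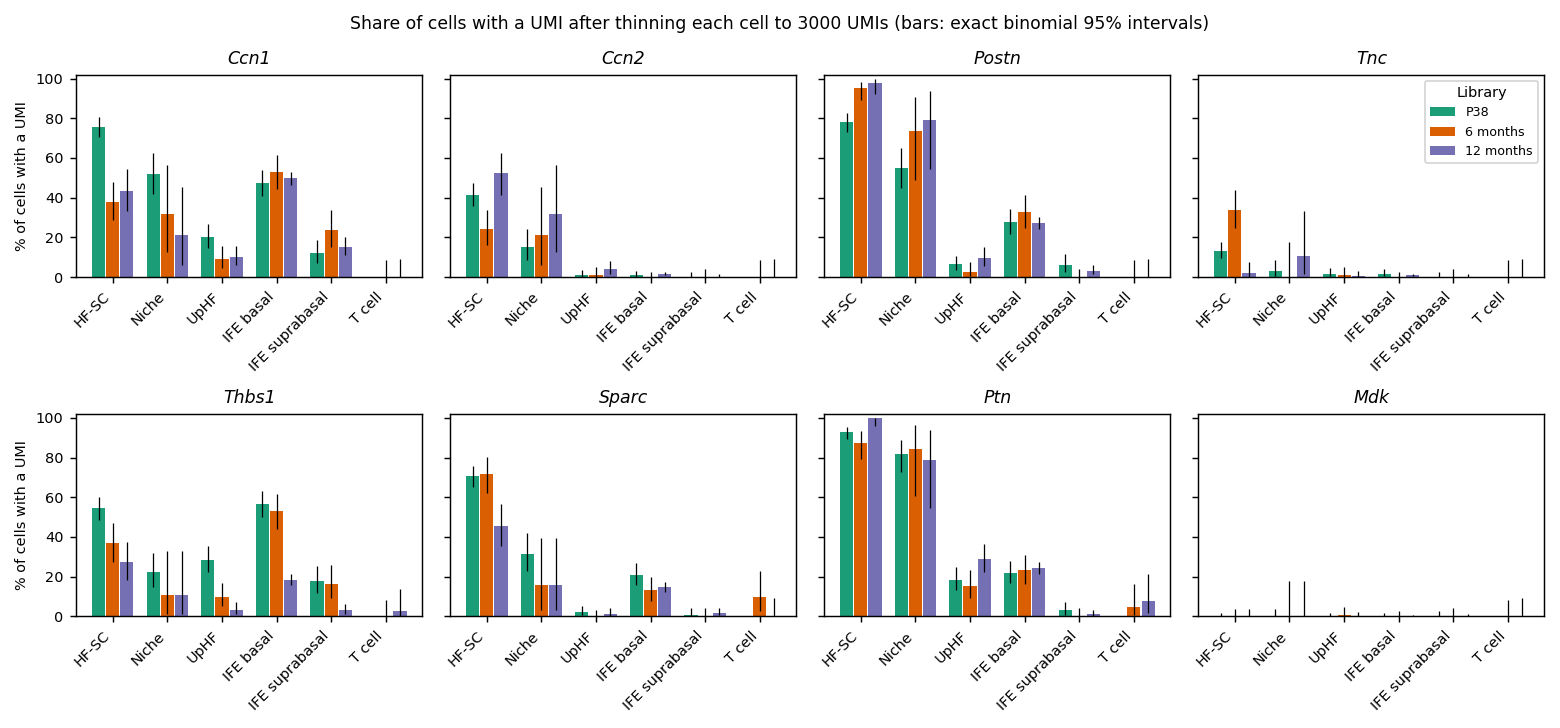
Share of cells with a UMI of each gene after thinning every cell to 3000 UMIs, by class along the horizontal axis and library (colours), with exact binomial 95% intervals for counting error only. Ptn and Postn are found in 78.1% to 100% of HF-SC-like cells, Ccn2 in 24.3% to 52.2% of them and at most 1.54% of IFE basal-like cells, and Mdk is close to 0 throughout.

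Between ages, the values are single libraries, a ratio of at least 2 or at most 0.5 was counted, and the members' counts are read against all genes with at least 10 CPM in either library. Age comparisons share their libraries. The median log2 ratio of all such genes in HF-SC-like cells was 0.28 for 6 months over P38, 0.23 for 12 months over P38 and -0.09 for 12 months over 6 months. The HF-SC-like cells did not fall in the same clusters at each age. The HF-SC cluster held 149 of the 306 P38 cells, 51 of the 106 cells of 6 months and 68 of the 94 cells of 12 months, while an unnamed cluster with Tnc and Lgr5 among its leading genes held 62, 28 and 0. That is the cluster led by Nppc and Scrg1, which also held 21 of 27 HG-like cells at P38 and 46 of 96 at 12 months. Ptn and Postn stayed within these limits in HF-SC-like cells, with ratios to P38 of 0.98 and 1.35 at 6 months and 1.72 and 1.90 at 12 months, although with classes from clusters Postn was at 2.13 at 12 months. Ccn1 had 0.276 times its P38 level at 6 months (95% interval 0.259 to 0.294) and 0.247 times at 12 months (0.226 to 0.270). Ccn2 was at 0.381 of its P38 level at 6 months and at 0.840 at 12 months, and with classes from clusters the ratio at 6 months was 0.602, within 2-fold. Thbs1 was at 0.502 and 0.173 of its P38 level, and Sparc at 0.919 and 0.262. Tnc was 2.55 times its P38 level at 6 months (2.16 to 3.02) and 0.214 times at 12 months (0.106 to 0.387). In the HF-SC cluster alone these Tnc ratios were 3.46 and 0.346. Of the 7 genes with 10 CPM, 3 were past 2-fold for 6 months over P38 (16.9% of all genes), 4 for 12 months over P38 (26.5%) and 4 for 12 months over 6 months (18.4%). The summed immediate early genes of HF-SC-like cells came to 37502, 29822 and 22655 CPM at the 3 ages, and the median UMIs per cell at 14382, 10862 and 6573.

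**Figure D4:**
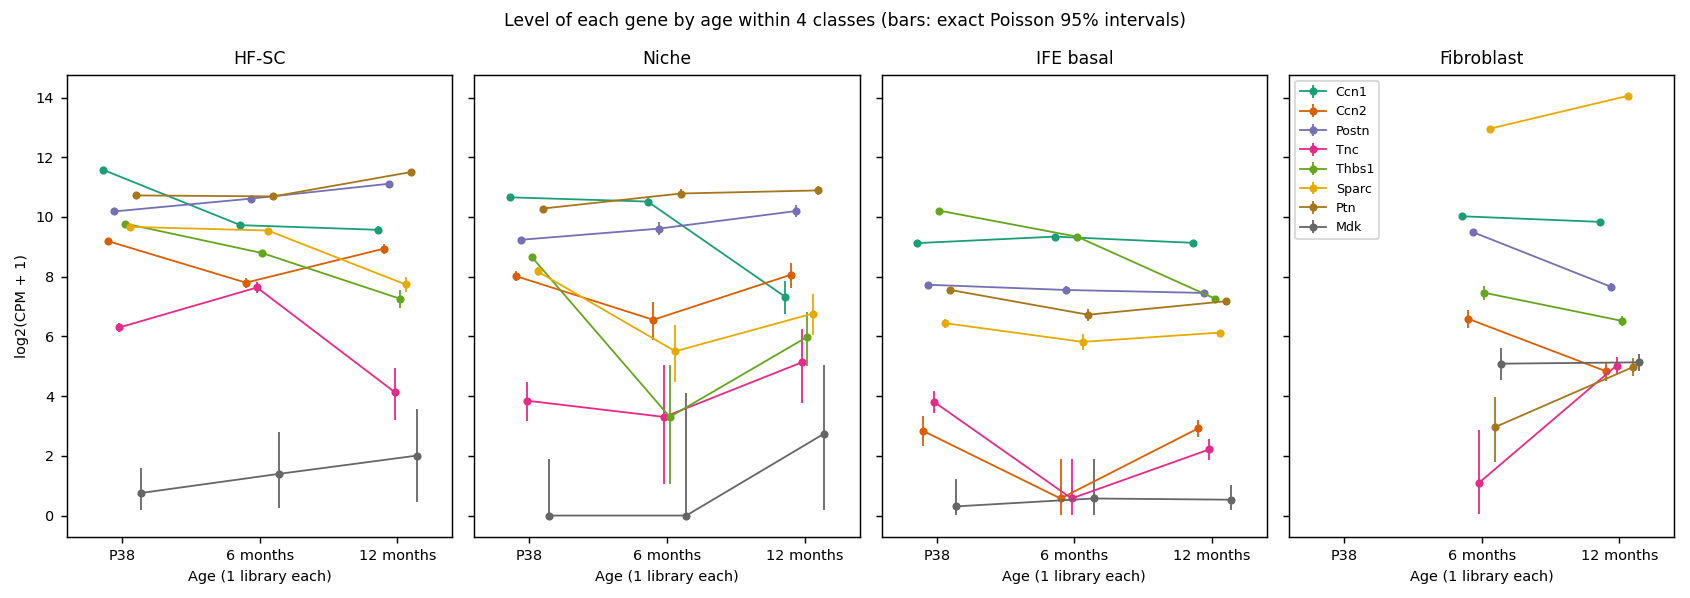
Level of each gene on the log2(CPM + 1) axis at the 3 ages in HF-SC-like, Niche-like, IFE basal-like and fibroblast-like cells, with exact Poisson 95% intervals. Ptn and Postn of HF-SC-like cells lie highest at 12 months (2904 and 2213 CPM), Thbs1 lies lowest at 12 months in HF-SC-like and IFE basal-like cells (152 and 153 CPM), and fibroblast-like cells have no P38 library.

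In IFE basal-like cells Ccn1, Postn, Sparc and Ptn stayed within 2-fold across ages. Ccn1 was at 557, 648 and 561 CPM, Postn at 211, 187 and 175 CPM and Sparc at 86.0, 55.4 and 68.9 CPM. Thbs1 had 1184, 647 and 153 CPM, a ratio of 0.129 for 12 months over P38 (0.122 to 0.137) and of 0.237 for 12 months over 6 months (0.220 to 0.255). Thbs1 was thus lower past 2-fold at 12 months than at both earlier ages in HF-SC-like and in IFE basal-like cells, without a test. With classes from clusters, its ratio for 12 months over 6 months in HF-SC-like cells was within 2-fold. Tnc was low, at 13, 0.486 and 3.64 CPM. Of the 6 genes with 10 CPM, 1 was past 2-fold for 6 months over P38 (9.96% of all genes) and 2 for 12 months over P38 (14.2%), and for 12 months over 6 months it was 1 of 5 (11.3%).

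The Niche-like cells carried the least data, with 225610 and 176207 UMIs in all at 6 and 12 months. Of all genes, 29.8% were past 2-fold for 6 months over P38, 40.3% for 12 months over P38 and 39% for 12 months over 6 months, beside 3, 4 and 5 of the 7 genes. Ccn1 was at 1615, 1463 and 159 CPM, a ratio of 0.0984 for 12 months over P38 (0.0652 to 0.143). These cells also fell in different clusters, with 49 of the 101 P38 cells, 14 of the 23 cells of 6 months and 6 of the 20 cells of 12 months in the Niche cluster, and 12, 1 and 6 in the HF-SC cluster. In the Niche cluster alone the Ccn1 ratio was 0.365. Ptn and Postn had ratios of 1.52 and 1.95 for 12 months over P38, against 3.31 and 4.1 in the Niche cluster alone. Thbs1 at 6 months rested on 2 UMIs and Tnc on 2.

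In fibroblast-like cells Sparc was at 17006.5 CPM at 12 months, against 7952 CPM at 6 months, a ratio of 2.14 (2.09 to 2.19), while the 6 fibroblast markers summed to 91105 CPM at 12 months, against 61362 CPM at 6 months. Postn was at 201 CPM at 12 months, against 715 CPM at 6 months (0.282, 0.251 to 0.316), and Ccn2 at 27.6 CPM, against 95.5 CPM (0.289, 0.209 to 0.398). Tnc had 88 UMIs at 12 months and 1 at 6 months, a ratio of 27.7 with a counting interval of 4.85 to 1108. Mdk had a ratio near 1, with 34.1 CPM at 12 months, against 33.0 CPM at 6 months (1.03, 0.675 to 1.62). Of the 8 genes 5 were past 2-fold, where 20.5% of all genes were. Fibroblast-like cells also fell in different clusters, with 97 of 109 at 6 months and 208 of 249 at 12 months in the fibroblast cluster. At 6 months 12 fell in the cluster of few UMIs with inner root sheath genes, and at 12 months 39 in the dermal papilla cluster. DP-like cells held 59.4 CPM of Tnc at 12 months, against 31.5 CPM in fibroblast-like cells. The part of this mix in the ratios was not tested.

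Receptors of the 2 heparin-binding factors were read from a list of 11 genes. Between HF-SC-like and IFE basal-like cells 8 were tested, of which 4 were higher and 2 lower, with a median log2 ratio of 0.41 against -0.01 over all genes, of which 23.4% were called. Sdc2 and Sdc1, heparan sulphate proteoglycans of the cell surface, were higher (1.53, adjusted p = 0.0017, and 0.95, adjusted p = 0.0035, edgeR). Ptprz1, the receptor phosphatase of pleiotrophin, was lower (-3.52, adjusted p = 0.0082), with 4, 0 and 0 UMIs in HF-SC-like cells, against 23, 13 and 149 UMIs in IFE basal-like cells. Alk, the receptor kinase, had 1, 0 and 0 UMIs in HF-SC-like cells. In fibroblast-like cells 4 of 9 tested receptors were higher and 4 lower than in IFE basal-like cells (31.8% of all genes called), led by Nrp1 (8.62), Lrp1 (4.21) and Sdc3 (6.37), all higher.

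Of 13 receptors of matricellular proteins, 4 of 9 tested were higher and 0 lower in HF-SC-like than in IFE basal-like cells (23.4% of all genes called, in either direction), with a median log2 ratio of 0.91. They were led by Itgb8 and Itgb6, integrin subunits that activate TGF-beta, and by Cd47, the thrombospondin receptor (3.25, 1.68 and 0.91, adjusted p = 0.00035, 0.0065 and 0.0049). Of 20 other matricellular genes only 6 were tested there, and 1 was higher and 3 lower. Thbs2, a thrombospondin paralog, and Tnxb, a tenascin paralog, were lower (-3.01 and -4.20, adjusted p = 0.0011 and 0.0019), at 3.45, 10.6 and 12.1 CPM for Thbs2 in HF-SC-like cells, against 44.0, 78.7 and 31.1 CPM in IFE basal-like cells. In fibroblast-like cells 8 of 9 tested other matricellular genes were higher than in IFE basal-like cells and 0 lower (31.8% of all genes called), led by Sparcl1 (8.75), Thbs2 (3.17) and Ccn5 (8.91).

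Of 24 other genes of the YAP and TAZ pathway, which take in Tead factors and targets, 5 of 23 tested were higher and 6 lower in HF-SC-like than in IFE basal-like cells, a median log2 ratio of 0.06. In this comparison 23.4% of all genes were called in either direction, which is also the background of the next 2 lists. Nt5e, Rbms3 and F3 led (5.88, 3.65 and -1.82). Of 17 TGF-beta pathway genes 4 were higher and 4 lower, led by Ltbp2 and Ltbp3, which bind latent TGF-beta (8.05 and 2.31), and by its coreceptor Tgfbr3 (-2.21). Of the 16 immediate early genes, 3 were higher and 0 lower, a share below that background, namely Ier3, Btg2 and Hspa1b (0.73, 1.05 and 1.46).

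Across the 36 pairs of class and library, the genes most like each of the 8 were found by Pearson's r of log2(CPM + 1) over 11182 genes. These are descriptions, since the points share libraries, depth and classes. Ccn2 was most like Grem1 (a BMP antagonist), Tekt2 and Tbx1 (r of 0.86, 0.85 and 0.85), and Postn was most like Gas1, Wnt5b and Boc (0.88, 0.88 and 0.86), the first and the last being hedgehog coreceptors. Ptn was most like Vwa2, Crim1 and Gm973 (0.82, 0.81 and 0.80). Sparc was most like the collagen-processing genes Fkbp10 and Serpinh1 and the collagen gene Col5a2 (0.89, 0.89 and 0.86), and Mdk was most like Tmem119, Mmp16 and Lamc3 (0.90, 0.86 and 0.85). Ccn1 was most like Osmr, Cavin3 and Nbl1 (0.84, 0.84 and 0.82), Tnc was most like Samd5, Shisa2 and Slc7a8 (0.86, 0.82 and 0.82), and Thbs1 was most like Dcaf1, Srf and Serf1 (0.77, 0.76 and 0.75). Among the 8 themselves the closest pair was Ccn2 and Postn (0.78), followed by Ccn2 and Ptn (0.77), while Ptn and Mdk, the 2 members of one growth factor family, had an r of -0.11.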

How the data were processed

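Single-cell libraries of mouse back skin were analysed, 1 per age. The authors deposited UMI counts per gene and cell from Cell Ranger (6.1.2 per the submitters' processing notes and the P38 header, 6.0.0 per the headers of 6 and 12 months) on mm10. Counts totalled 40509290, 48722038 and 48887123 UMIs in 2397, 4761 and 5421 barcodes. The cells kept (8851) had over 200 but under 5000 genes, with mitochondrial counts below 15%. At 6 months this left 3502 cells, well above the number the study gives for the same filter, and many had few UMIs (median 1019). No doublet caller was run and no doublets were removed. Cells were gated on 115 marker genes (mean score at least 0.5, margin 0.2, at least 3 markers detected). HF-SC-like, Niche-like, migNiche-like and HG-like cells also needed at least 20 UMIs of Krt14 and Krt5 together per 10000. HF-SC-like cells further needed at least 1 UMI of Cd34 or Krt24. These conditions took HF-SC-like cells at P38 from 385 to 306 and HG-like cells at 6 months from 48 to 3. The gates placed 5772 cells in 18 classes, and a class needed 20 cells in a library. Unmapped columns numbered 0.

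UMIs of a class were summed per library and tested with edgeR 4.0.16 (quasi-likelihood, TMM, low-count filter, library as a block, Benjamini-Hochberg over all genes, threshold 0.05) in R 4.3.3. Libraries are the replicates, each from 1 skin preparation. A fit of 2 libraries leaves 1 residual degree of freedom, so its p-values rest little on the spread between libraries. CPM intervals are exact Poisson, ratio intervals exact conditional and share intervals exact binomial, all at 95% and for counting error only (Python 3.11.15, scipy 1.17.1). Alternatives were DESeq2 1.42.0, no filter, no block, leaving out each library, Seurat 5.3.0 clusters made without the 8 genes, other cell filters and a strict gate. Leaving out shared barcodes was chosen after seeing the data. Scripts were tested on simulated data.

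All 8 genes are named. From each other list up to 3 called genes with the lowest adjusted p are named, except that Ptprz1's partner Alk was named after its values were seen, and for likeness the 3 genes with the highest r. The members and lists were chosen with earlier results of these data known.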

Additional observations from a re-analysis of the deposited data

Results flagged for a closer look

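Some genes were past 2-fold in opposite directions between the same ages in different classes, with counting intervals that left out 1. The differences between classes were not tested, since each age has 1 library. Tnc at 6 months over P38 had a ratio of 2.55 in HF-SC-like cells and 0.0374 in IFE basal-like cells, the second on 1 UMI at 6 months. At 12 months over 6 months Tnc had a ratio of 0.0837 in HF-SC-like cells and 27.7 in fibroblast-like cells, where it had 1 UMI at 6 months. Ccn2 had a ratio of 2.20 in HF-SC-like and 2.87 in Niche-like cells, and of 0.289 in fibroblast-like cells. Thbs1 had a ratio of 0.345 in HF-SC-like and 0.237 in IFE basal-like cells, and of 7.04 in Niche-like cells, where it had 2 UMIs at 6 months. Sparc had a ratio of 0.285 in HF-SC-like cells, 2.43 in Niche-like cells (19 UMIs at 12 months and 10 at 6 months) and 2.14 in fibroblast-like cells. With classes from clusters the Sparc ratio of Niche-like cells turned to 0.332, the direction of HF-SC-like cells, and in HF-SC-like cells the ratios of Ccn2 and Thbs1 were 1.44 and 0.521, within 2-fold.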

How the results depend on the processing

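Over the alternatives, 342 log2 ratios of the 8 genes between classes kept their direction and side of the threshold, 29 lost the call, 13 gained it and 1 reversed. Without the library block, which pairs the classes of 1 skin preparation, calls over all genes numbered 1301 for HF-SC-like over IFE basal-like cells (2389 with it), 3 over Niche-like (168), 1398 over UpHF-like (2645), 0 for HG-like over HF-SC-like (118; 444 at an unadjusted p under 0.05, and 81 with DESeq2) and 1265 for IFE suprabasal-like over IFE basal-like cells (2583), and Sparc in HG-like over HF-SC-like cells turned to 0.17 on the log2 scale. Leaving out 1 library gave 1552 to 1971 calls over IFE basal-like, 15 to 172 over Niche-like, 1905 to 2367 over UpHF-like and 1277 to 3294 for IFE suprabasal-like cells; the 1552 was without 6 months, the 15 without P38, and without 12 months the counts were 31 over Niche-like and 1277. Without the low-count filter 488 genes were called over Niche-like cells and 292 for HG-like cells. Clusters gave 632 over Niche-like cells, the strict gate 1523 over UpHF-like cells, and for HG-like cells at least 1000 genes per cell gave 63 and no upper limit 186. Between ages 32 of 67 ratios were past 2-fold, and with clusters 31, of which 22 were past it in both. Of the 46 ratios that thinning or the strict gate could give, 20 were past 2-fold before, 17 after thinning and 21 under the strict gate. In all 117 age ratios moved beyond their interval or spread and 301 did not, with 39 of the 117 under clusters. With clusters, Sparc in Niche-like cells turned to 1.69 for 6 months over P38 and 0.332 for 12 over 6 months, and Ptn in fibroblast-like cells turned to 0.34 under the strict gate. The causes were not tested. Libraries could not be left out where only 2 entered, HG-like cells had no cluster of their own, and the strict gate left too few HG-like and Niche-like cells. Depth limits Mdk in epithelium and Tnc and Thbs1 in Niche-like cells.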
